A study of Mus musculus with 2 samples.

Results

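The sites described here are the 2941 accessible sites nearest to the centromere on mouse chromosomes 1 to 19. Each is an ATAC-seq peak of replicate 1 that overlapped a replicate 2 peak by at least 1 bp and that started below position 8000000. They were chosen by position and by presence in both libraries, and make up 2941 of 83732 shared sites of the series. The other 78574 shared sites of chromosomes 1 to 19 are the rest against which they are set. ATAC-seq marks open chromatin by the insertion of adapters by the Tn5 transposase. The series held 1 group of 2 libraries from mouse cells labelled GSC, of genotype Stag3 KO in the line Acrosin-EGFP; beta-Actin-EGFP (AAG), viable and sorted as AAG-positive. No age is given, and no wild-type library was analysed here, so no value below is an effect of the knockout. Whether the libraries are independent cultures is not stated, and their spread may be only technical.

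Mouse chromosomes other than Y are telocentric: the centromere lies next to the low-coordinate telomere, and the assembled sequence begins only after a gap that stands for satellite repeats. Centromeric satellites are packed as constitutive heterochromatin, and the sequence next to them often holds segmental duplications and multicopy gene clusters. STAG3 is known mainly from meiotic cohesin, and cohesin both links sister chromatids and shapes chromatin loops. The gap was taken as the first 3 Mb, and the first peak of either library started at 3010270 on chromosome 8, so 5 Mb per chromosome and 95 Mb in all were counted.

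Across the libraries, 107331 and 98986 peaks were deposited. All 14 marker genes of undifferentiated spermatogonia had a shared site within 1000 bp of a gene end, against 2 of 6 markers of feeder fibroblasts and 5 of 6 of Sertoli cells. Over all protein-coding genes of chromosomes 1 to 19 the share was 67.4%. A site at a gene end does not measure expression, and the part of other cells was not tested. Stag3 itself lies outside the interval, on chromosome 5 at 138272514 to 138312397, where a gene-end site had 6.27-fold enrichment in replicate 1 and 6.72-fold in the other. Which part of the gene was removed is not given in the sources used here, so this site does not check the knockout.

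The promoters below show what lay under the strongest sites, beside promoters of the interval that had no site at a gene end. The first 5 belong to the protein-coding genes with a single RefSeq start whose site over that start had the highest fold, and the last 2 are, among genes with 1 start window and no site, the first vomeronasal Vmn1r gene and the first predicted Gm model of chromosome 14 by name. Each line gives the 150 bases before the transcription start in RefSeq on GRCm38.p6, 5′ to 3′ on the strand of the gene, with CpG dinucleotides in capitals.
Zim1: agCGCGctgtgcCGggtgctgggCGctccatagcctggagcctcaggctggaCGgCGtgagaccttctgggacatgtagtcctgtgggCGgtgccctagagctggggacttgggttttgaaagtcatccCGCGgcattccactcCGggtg
Mcm10: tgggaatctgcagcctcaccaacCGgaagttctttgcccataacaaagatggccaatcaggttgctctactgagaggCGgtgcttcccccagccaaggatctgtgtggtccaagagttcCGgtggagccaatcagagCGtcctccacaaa
Dynlt1c: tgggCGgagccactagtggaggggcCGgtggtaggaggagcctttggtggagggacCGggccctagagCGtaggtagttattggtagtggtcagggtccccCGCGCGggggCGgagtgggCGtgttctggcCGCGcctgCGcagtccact
Dhtkd1: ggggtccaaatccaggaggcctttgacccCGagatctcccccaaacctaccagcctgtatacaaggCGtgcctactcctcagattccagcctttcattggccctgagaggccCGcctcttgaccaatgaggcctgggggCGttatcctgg
Isoc2b: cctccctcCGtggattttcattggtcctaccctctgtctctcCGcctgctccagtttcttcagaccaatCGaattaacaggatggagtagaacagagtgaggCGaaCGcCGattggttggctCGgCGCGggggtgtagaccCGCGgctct
Vmn1r55: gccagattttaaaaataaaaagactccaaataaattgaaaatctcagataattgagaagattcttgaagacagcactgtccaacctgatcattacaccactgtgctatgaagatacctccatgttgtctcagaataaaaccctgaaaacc
Gm10338: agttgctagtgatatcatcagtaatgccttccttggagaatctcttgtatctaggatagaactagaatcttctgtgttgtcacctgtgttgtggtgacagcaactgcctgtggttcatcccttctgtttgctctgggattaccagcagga
The Zim1 stretch is chr7:6696433-6696582 (minus strand), Mcm10 is chr2:5012792-5012941 (minus strand), Dynlt1c is chr17:6601629-6601778 (plus strand), Dhtkd1 is chr2:5942793-5942942 (minus strand) and Isoc2b is chr7:4866180-4866329 (minus strand). Vmn1r55 is chr7:5147423-5147572 (minus strand) and Gm10338 is chr14:7595530-7595679 (minus strand). The first 5 stretches held 10, 4, 12, 4 and 11 CpG dinucleotides, and Vmn1r55 and Gm10338 held 0. The CCAAT box, searched as CCAAT on both strands, lay in 4 of the first 5 stretches (Mcm10, Dynlt1c, Dhtkd1 and Isoc2b) and in neither of the last 2. The Zim1 stretch held a GC box, searched as GGGCGG on both strands, as did Dynlt1c.

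The site over the Zim1 start had a fold enrichment over local background of 35.6 in replicate 1 and 35.9 in replicate 2, on 502 and 542 tags stacked at the summit. Zim1 is an imprinted zinc finger gene of the Peg3 domain. Mcm10, which encodes a replication initiation factor, had 33.4-fold and 35.6-fold on 471 and 578 tags. Dynlt1c, a dynein light chain gene with near-identical copies beside it, had 32.8-fold and 35.4-fold on 133 and 183 tags. Its tags were fewer than at the other 4 genes at a like fold, and its local background was also lower, 3.08 and 4.20 tags against 13.1 and 14.1 at Zim1. Dhtkd1, a mitochondrial dehydrogenase gene, had 31.7-fold and 35.7-fold, and Isoc2b had 34.7-fold and 32.4-fold.

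Shared sites were somewhat sparser near the chromosome start than elsewhere, but the chromosomes differed far more from each other than the pooled values did. The interval held 31.0 shared sites per Mb against 34.0 per Mb over the rest, a ratio of 0.910. The ratio was 0.948 for all peaks of replicate 1 and 0.904 for all peaks of replicate 2. Of 19 chromosomes, 11 had fewer sites per Mb near the start and 8 had more. By chromosome the density near the start was 31.0 ± 17.7 per Mb (SD over 19 chromosomes), against 34.3 ± 4.57 per Mb over the rest. These SDs are not alike: the first is over stretches of 5 Mb, the second over means of much longer stretches. Within single chromosomes, the SD over the other windows of 5 Mb ran from 12.4 (chromosome 3) to 22.8 per Mb (chromosome 5). The pooled difference of about 3 sites per Mb was smaller than each of these SDs. They describe the spread of single stretches or chromosomes, however, and are not the error of a pooled difference. With an upper position of 6 Mb in place of 8 Mb the ratio was 1.03, so the pooled direction turned with the limit. No test was made: neighbouring sites are not replicates, and an exact two-sided sign-flip test over 2 libraries cannot give a p below 0.5.

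The lowest density was on chromosome 3, where 44 sites gave 8.80 per Mb against 29.5 over the rest (ratio 0.298). Chromosome 14 had 48 sites (9.60 against 26.7 per Mb) and chromosome 9 had 78 (15.6 against 36.6). Chromosomes 13, 4, 5, 8 and 1 followed, with ratios of 0.482, 0.538, 0.576, 0.596 and 0.598. These 8 chromosomes were those with a ratio under 0.6. At the other end stood chromosome 19, with 410 sites, 82.0 per Mb against 38.1 (ratio 2.15), and chromosome 7, with 254 sites, 50.8 per Mb against 35.0 (ratio 1.45). The remaining 9 chromosomes had ratios between 0.843 (chromosome 15) and 1.19 (chromosome 11), with chromosome 6 at 1.00. Without chromosome 19 the pooled ratio was 0.829, and leaving out any other single chromosome gave 0.879 to 0.939.

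**Figure D1:**
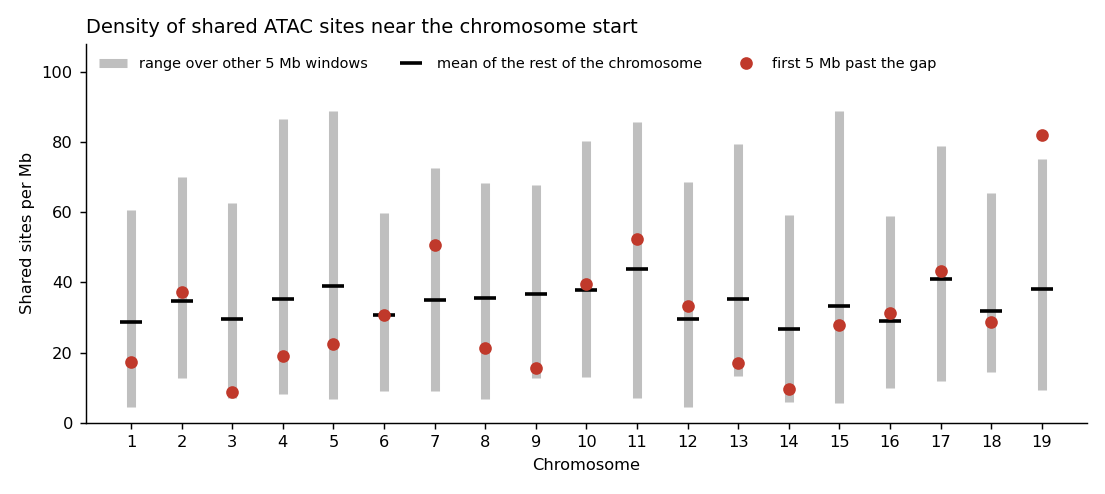
Shared sites per Mb in the first 5 Mb past the gap (red points) by chromosome, with the mean of the rest of the chromosome (black bars) and the range over its other 5 Mb windows (grey). Chromosome 19 at 82.0 per Mb lies above all its other windows, and no other chromosome does so.

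To place these values, each chromosome was divided into windows of 5 Mb from the end of the gap. The 453 other windows had a median of 31.4 sites per Mb, with quartiles of 20.2 and 45.2 and a range of 4.60 to 89.0. Of the 19 first windows, 6 lay below that lower quartile and 3 lay above the upper one. On no chromosome was the first window the lowest: on chromosomes 3 and 9 there was 1 window with fewer sites, of 30 and 23 others, and on chromosome 13 there were 2 of 22. On chromosome 19 the first window was the highest, above all 10 others, whose highest was 75.2 per Mb. Windows as sparse or as dense as those at the start were thus also found elsewhere in the genome.

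Within the interval the density did not climb with distance from the gap. Over all 19 chromosomes, the first Mb past the gap held 620 shared sites, a mean of 32.6 per chromosome with a range of 5 to 65. The next Mb held 730 (38.4), and then came 644 (33.9), 551 (29.0) and 396 (20.8). The Mb just above the limit held 597 (31.4). Gene starts followed a like course, with 197, 238, 175, 154 and 105 protein-coding genes in the 5 successive Mb and 129 in the one after. The last Mb below the limit had no site on 1 chromosome. The first shared site lay at a median of 158 kb past the gap. The nearest, on chromosome 8 at 3010270 to 3010497, stood 10.3 kb past the gap with 5.96-fold and 4.80-fold on 18 and 14 tags. On chromosome 16 the first was 699 kb past it, at 3699191 to 3699717, with 17.2-fold and 23.9-fold. On chromosome 1 the first site, at 3117939 to 3118297, was also the strongest of its interval, with 29.6-fold and 28.7-fold.

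**Figure D2:**
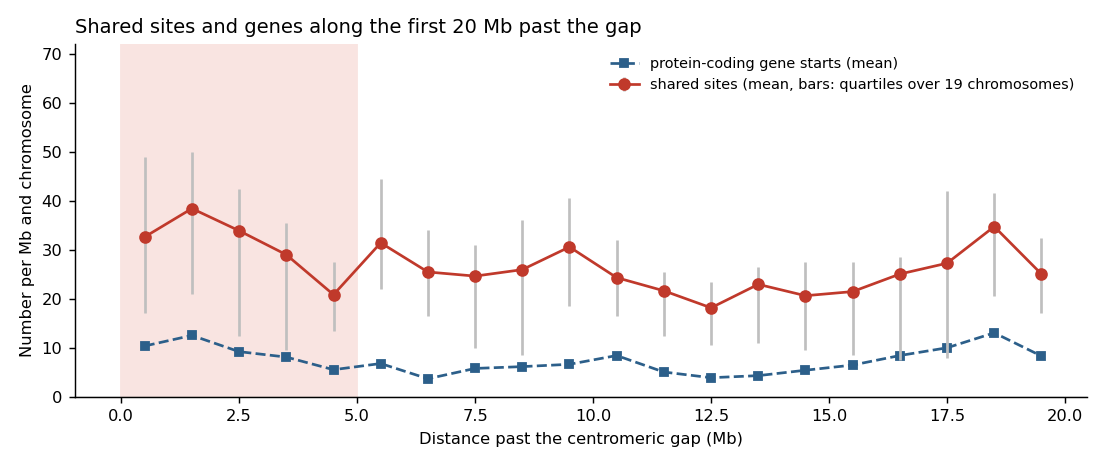
Mean number of shared sites (red, bars give the quartiles over 19 chromosomes) and of protein-coding gene starts (blue) per Mb and chromosome against the distance past the centromeric gap. The shaded first 5 Mb fall from 38.4 sites in the second Mb to 20.8 in the fifth, and the next Mb holds 31.4.

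The number of sites followed the number of genes. The interval held 869 protein-coding genes, 9.15 per Mb against 8.53 per Mb over the rest, and 3.38 shared sites per gene against 3.99. Over the 19 chromosomes the sites and the genes of the interval correlated with Pearson r = 0.781 and Spearman rho = 0.636, given as a description, since all points come from the same libraries. Without chromosomes 19 and 7, which had the most genes, r was 0.351 and rho 0.494. Chromosome 14 was kept in that set, so the drop cannot be assigned to chromosomes 19 and 7 alone. Over the 453 other windows r was 0.703 and rho 0.785. Chromosome 14 stood apart with 80 genes and 48 sites, and without it, but with chromosomes 19 and 7, r was 0.892. At the low end, chromosome 3 had 7 genes in its interval and chromosome 1 had 14. Counted per gene, chromosomes 3 and 1 had 6.29 and 6.14 sites, against 4.60 and 4.61 over the rest of the same chromosomes. Of the 8 chromosomes with a density ratio under 0.6, 5 had fewer sites per gene than their rest, among them chromosome 8 with 2.65 against 4.30 and chromosome 9 with 2.79 against 3.64. Chromosome 19, with 183 genes, had 2.24 sites per gene against 3.90.

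**Figure D3:**
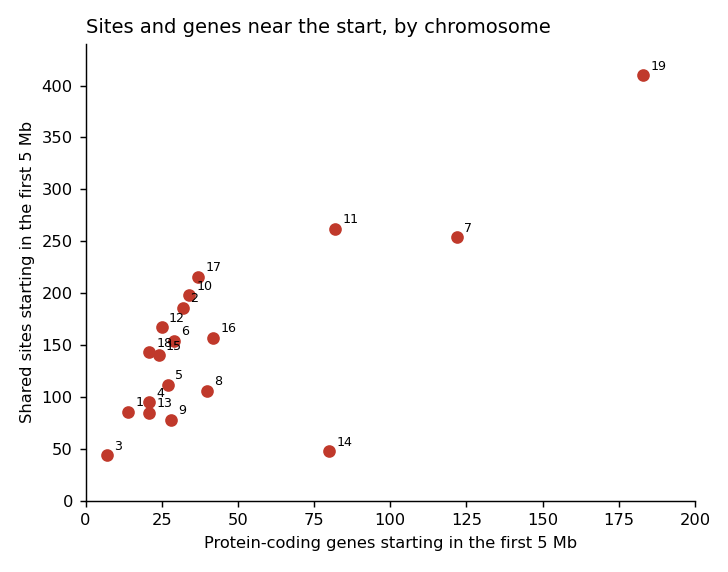
Shared sites against protein-coding genes in the first 5 Mb past the gap, with 1 labelled point per chromosome. Chromosome 19 (183 genes, 410 sites) and chromosome 3 (7 genes, 44 sites) mark the ends, and chromosome 14 (80 genes, 48 sites) has few sites for its number of genes.

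The sites near the start lay at gene ends slightly more often, with most of the excess on chromosome 19. Of the 2941 sites, 777 reached within 1000 bp of either end of a protein-coding gene (26.4%, 95% Wilson interval 24.9 to 28.0), against 22.1% of the rest (21.8 to 22.4). Over all shared sites of chromosomes 1 to 19 the share was 22.2%. These intervals cover counting error only. Chromosome 19 alone gave 192 of the 777, 46.8% of its 410 sites against 21.9% over its rest. Without it the shares were 23.1% and 22.1%. The lowest shares were on chromosomes 14 (5 of 48 sites), 3 (6 of 44) and 13 (12 of 85).

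Genes near the start had a site at an end as often as other genes. Of 869 genes, 582 had one in both libraries (67.0%, interval 63.78 to 70.02), against 67.4% of the other genes of chromosomes 1 to 19 (66.8 to 68.1) and 67.4% of all genes tested. By single library the shares were 69.3% in replicate 1 and 68.2% in replicate 2. This evenness hid chromosomes that differed widely. On chromosome 6, 25 of 29 genes had such a site (86.2% against 63.0% over its rest), on chromosome 18 18 of 21 (85.7% against 78.8%), on chromosome 11 69 of 82 (84.1% against 72.4%) and on chromosome 19 153 of 183 (83.6% against 63.2%). On chromosome 13 only 8 of 21 had one (38.1% against 68.1%), and on chromosome 14 4 of 80 (5.00% against 61.4%). Without chromosome 14 the interval stood at 73.3% and the rest at 67.7%, and without chromosome 19 at 62.5% and 67.5%. The balance thus rested on these chromosomes, which lay on opposite sides.

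**Figure D4:**
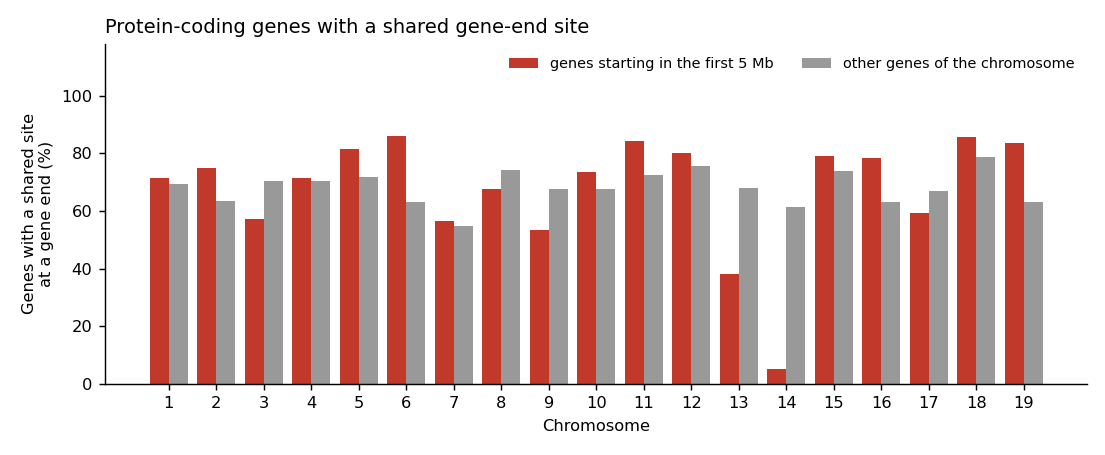
Percent of protein-coding genes with a shared site within 1000 bp of a gene end, for genes in the first 5 Mb past the gap (red) and the other genes of the same chromosome (grey). Chromosome 14 stands at 5.00% against 61.4%, and chromosome 19 at 83.6% against 63.2%.

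On chromosome 14 the interval held 48 shared sites for 80 protein-coding models, or 0.6 sites per gene against 4.06 over the rest of the chromosome. Of the 80 models, 71 carried predicted names of the Gm type, and 2 of those had a site: Gm8108 (5.96-fold and 9.28-fold, on 18 and 28 tags) and Gm45521 (8.52-fold and 6.57-fold). Each library had 63 peaks in the interval, and 76.2% of those of replicate 1 recurred, against 74.8% over the rest of the chromosome. The local background was at its lowest possible value in replicate 1, 2.19 tags, at 72.9% of the chromosome 14 sites near the start, against 32.9% over the rest of the chromosome. Many of these models are near-identical copies, and reads from copies may map to several places. How such reads were treated is not given in the sources used here, and their part in the low counts was not tested.

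Clustered receptor genes near the start had no shared site at their ends. Of 33 olfactory and vomeronasal receptor genes, which detect odorants and pheromones, 0 had a shared gene-end site, 3 had one in replicate 1 only and 2 in replicate 2 only. The 14 Vmn1r genes lay on chromosomes 4, 7 and 18, and the 9 Vmn2r genes on chromosome 7. Of receptor genes elsewhere on chromosomes 1 to 19, 1.84% had one, so this near absence also held outside the interval. Of 92 predicted Gm models 11 had one (11.96%), against 25.8% of such models elsewhere. This lower share came from chromosome 14, with 2 of 71: the other 21 models of the interval had 9 (42.9%), against 26.4% elsewhere without chromosome 14. Other clusters were picked by name stem after the gene names of the interval were seen, and their families were not counted elsewhere. Their counts are thus examples, beside a share of 67.4% over all protein-coding genes of chromosomes 1 to 19. The 8 Akr1c genes of chromosome 13 for aldo-keto reductases, the 7 Cd209 lectin genes of chromosome 8 and the 5 Slc22a transporter genes of chromosome 19 had 0. The 10 matrix metalloproteinase genes (Mmp) of chromosome 9 had 0 shared sites, and 2 had a peak in replicate 1 only. Not every cluster was bare: all 3 Nlrp genes of chromosome 7 (Nlrp12, Nlrp2 and Nlrp4c) had a site, as did 1 of 3 Aldh3b genes (Aldh3b2) and 1 of 3 caspase genes (Casp4). Without receptors and predicted models, 571 of the remaining 744 genes of the interval had a gene-end site (76.7%), against 74.8% elsewhere. The gene lists below hold no olfactory or vomeronasal receptors and no predicted Gm models. For them these shares are a closer comparison than the 67.4% of all genes, and most of the lists are too short to differ clearly from either.

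Zinc finger genes of the interval had sites almost throughout. Zinc finger proteins of this kind bind DNA, and many silence retroelements. Of 23 Zfp genes, 22 had a shared gene-end site, against 82.9% of the 363 Zfp genes elsewhere on chromosomes 1 to 19 and 67.4% of all genes. Of the 23, 16 lay on chromosome 7, among them Zfp583, the 1 without a site. The strongest was Zfp958 on chromosome 8, at 4612905 to 4613422, with 34.0-fold and 33.7-fold on 471 and 472 tags. Zfp174 on chromosome 16 had 29.8-fold and 31.0-fold on 586 and 627 tags, and Zfp773 on chromosome 7 had 28.3-fold and 27.0-fold on 203 and 219 tags. Zfp78 and Zfp28 had the same site within reach of their neighbouring ends, with 26.7-fold and 29.5-fold on 414 and 493 tags. It covered the lower-coordinate end of Zfp28 and lay outside the Zfp78 model. The lowest were Zfp787 (7.79-fold and 6.23-fold) and Zfp579 (9.19-fold in both libraries). Zfp787 also held a stronger site inside, at 6155837 to 6156419, with 16.88-fold and 17.65-fold, and its 1 RefSeq start lay under a shared site.

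Imprinted genes, which are expressed from 1 parental allele, and their neighbours lie in the interval in 2 domains, around Peg10 on chromosome 6 and around Peg3 on chromosome 7. All 11 listed genes of the interval had a shared gene-end site, against 67.4% of all genes, and the fold ranged widely. The list held no gene elsewhere to compare with. Beside Zim1 at 35.6-fold and 35.9-fold stood Peg3 and Usp29, which begin close to each other and shared a site of 7.31-fold and 6.51-fold at 6730349 to 6730684. This low fold came with many tags: 519 in replicate 1 and 470 in replicate 2, close to the 502 and 542 of Zim1. The local background there was 70.1 and 71.3 tags, against medians of 4.24 and 4.02 tags over all sites of the interval. Adjoining sites at 6729403 to 6729748 and 6727772 to 6729041 had 5.53-fold and 5.85-fold, and 7.47-fold and 7.86-fold. These 3 sites had the highest background in replicate 1 of all 2941, and fold alone ranks them low, at percentiles 24.4 to 41.8 of all replicate 1 peaks. Usp29, a long gene for a ubiquitin-specific protease, also held 25 sites further inside, the strongest with 31.9-fold and 30.4-fold at 6851749 to 6852180.

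In the chromosome 6 domain, Sgce and Peg10, a gene derived from a retrotransposon, shared a site of 5.52-fold and 5.59-fold on 107 and 97 tags. It lay at 4746958 to 4747522, over the neighbouring ends of both models. Ppp1r9a had 14.02-fold and 12.8-fold, Pon2 had 14.5-fold and 15.8-fold, and Pon3 had 12.1-fold and 17.1-fold. The Pon3 site held 42 tags in replicate 1 and 72 in replicate 2. Calcr, the calcitonin receptor gene, had 7.97-fold and 7.98-fold, and Asb4 had 7.23-fold and 6.59-fold. Dlx5, a homeobox gene further along, had 5.42-fold and 5.74-fold. Ppp1r9a also held a stronger site inside the gene, with 31.6-fold and 28.1-fold at 5110368 to 5110803.

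Chromatin genes of the interval had a gene-end site in 6 of 7 cases, against 67.4% of all genes. The strongest were Ubn1, a histone H3.3 chaperone subunit gene, with 24.1-fold and 25.6-fold on 320 and 379 tags, and Men1, which encodes the MLL partner menin, with 22.5-fold and 27.0-fold on 360 and 410 tags. Asxl2, a Polycomb-associated gene, had 16.4-fold and 17.6-fold, and the acetyltransferase gene Crebbp had 9.86-fold and 10.4-fold at a site outside its model. The demethylase gene Kdm2a had 8.48-fold and 7.90-fold over 1757 bp, one of the 5 widest sites, and the SWI/SNF gene Arid1b had 6.05-fold and 6.74-fold. Dnmt3a, the de novo DNA methyltransferase gene, had no gene-end site but 12 sites inside. The strongest of them had 15.3-fold and 19.6-fold at 3825212 to 3826324, and 1 of 3 RefSeq starts of the gene lay under a shared site.

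Genes of germline and meiotic function had a gene-end site in all 6 cases found in the interval, against 3 of 5 listed genes elsewhere and 67.4% of all genes. Nlrp4c, an oocyte-expressed gene, had 25.2-fold and 27.0-fold, and Fbxo5, an inhibitor of the anaphase-promoting complex, had 21.6-fold and 19.97-fold on 469 and 434 tags. Katna1, which encodes a microtubule-severing enzyme, had 18.8-fold and 21.4-fold on 272 and 278 tags. Crem, a regulator of spermatid transcription, had 13.5-fold and 16.0-fold on 210 and 234 tags. Mos, the oocyte maturation kinase gene, had the weakest, with 5.70-fold and 4.89-fold on 67 and 63 tags. Cdca5 was the only cohesin gene of the interval, and its site had 19.8-fold and 20.1-fold.

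Gdnf encodes the ligand that sustains spermatogonial stem cells and is known as a product of somatic cells of the testis. It lies close below the limit on chromosome 15. Its gene-end site, at 7810021 to 7810486, had 7.44-fold and 6.12-fold enrichment, on 93 and 73 tags. The strongest site of the chromosome 15 interval lay between genes 55.5 kb from Gdnf, at 7754184 to 7754581, with 32.1-fold and 33.5-fold on 214 and 211 tags. The same list held genes of LIF and related cytokines, a family distinct from that of GDNF. Lif had 12.8-fold and 8.88-fold at its higher-coordinate end and 22.9-fold and 22.0-fold inside, and Osm had 16.3-fold and 11.7-fold. Osmr had 6.01-fold and 7.67-fold, and Clcf1 had 6.16-fold and 6.32-fold. Lifr, the LIF receptor gene, had no gene-end site but a site of 30.5-fold and 30.2-fold inside, and 1 of its 2 RefSeq starts lay under a shared site. In all, 5 of 6 genes of this list had a gene-end site, against 67.4% of all genes.

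Hormone and opioid receptor genes had one in 5 of 6 cases, against 67.4% of all genes. Oprk1, the kappa opioid receptor gene, was the strongest with 25.4-fold and 25.4-fold on 214 and 175 tags, and Esrra, an orphan nuclear receptor gene of energy metabolism, had 19.5-fold and 20.2-fold on 441 and 493 tags. Ghr had 13.8-fold in both libraries, Insr had 8.68-fold and 12.2-fold, and the oestrogen receptor gene Esr1 had 8.47-fold and 12.4-fold on 26 and 45 tags. Oprm1 had none, but held 13 sites inside, and 2 of its 3 RefSeq starts lay under a shared site. Among mitochondrial and housekeeping genes 6 of 7 had one, against the same 67.4%, led by Ndufv1 (28.3-fold and 30.2-fold) and Mrpl21 (27.6-fold and 29.7-fold). Tfb1m, a mitochondrial RNA methyltransferase gene, had the most tags of these genes, 670 and 760, at 22.8-fold and 24.0-fold. Ndufs8, a complex I subunit gene, had none, held 0 sites inside, and its 1 RefSeq start lay under no shared site. By contrast Dnmt3a, Lifr and Oprm1 had sites inside and over at least 1 RefSeq start. The lack of a gene-end site alone therefore does not show that a gene is closed.

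The strongest sites lay away from gene ends about as often as all sites of the interval, 73.6% of which did. On 15 of 19 chromosomes the strongest site by mean fold was inside a gene or between genes, and on 4 (chromosomes 7, 11, 13 and 19) it was at a gene end. The highest of all lay on chromosome 17 between genes at 6469196 to 6469527, 28.7 kb from Dynlt1b, with 36.3-fold and 38.9-fold on 259 and 273 tags. The next lay on chromosome 5 at 4269329 to 4269707, 71.7 kb from Mterf1b, with 37.2-fold and 37.3-fold on 296 and 336 tags. On chromosome 6 a site 57.5 kb from Tfpi2, at 3904649 to 3905120, had 34.3-fold and 36.1-fold. A site inside Camk1d had 33.9-fold and 35.3-fold, and one inside Syne1 had 34.8-fold and 34.3-fold. The strongest site of chromosome 3 was weaker, with 26.9-fold and 24.4-fold, and lay 565 kb from the nearest protein-coding gene, Zfhx4. On chromosome 9 the strongest, inside Alkbh8, differed most between the libraries, with 31.8-fold on 256 tags and 27.1-fold on 127 tags.

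The genes with most sites away from gene ends were long. The count covers the whole gene, so a longer gene has more room for sites, and no rate per kb was taken. Counted inside the gene and within 50 kb of it, Syne1, which encodes the giant nuclear envelope protein nesprin-1, had 29 such sites, 25 of them inside its 531 kb. Usp29 had 27, and Rbfox1, a splicing regulator gene of 1528 kb, had 26. Arid1b, Celf2 and Frmd4a had 24 each. The median over all 869 genes of the interval was 4, and 88 of them had none. Genes elsewhere were not counted in this way, so these values are not shown to be particular to the interval. The median fold of these sites was alike in both libraries at Syne1 (12.1 and 12.2) and differed at Celf2 (10.5 and 8.00).

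The 5 widest sites of the interval, by the span of both libraries' peaks together, were gene-end sites of low fold. The widest, at Zeb1 on chromosome 18, spanned 2199 bp with 5.65-fold and 8.39-fold. At Patz1 on chromosome 11, overlapping regions of 1873 and 1809 bp shared the same replicate 2 peak, with 5.13-fold and 6.33-fold in replicate 1 and 6.45-fold in replicate 2. Npbwr1 on chromosome 1 had 1800 bp with 4.03-fold and 6.15-fold. In all, 164 sites of the interval shared a replicate 2 partner with another, and counting each partner once gave a density ratio of 0.904.

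Fold enrichment near the start was close to that elsewhere. The median was 11.0 in replicate 1 (quartiles 6.49 and 18.5, range 2.41 to 37.2) and 10.2 in replicate 2 (6.34 and 17.5, range 2.41 to 38.9). Over the rest it was 10.9 and 10.6. Of the 2941 sites, 41.8% were above the median fold of shared sites in both libraries (1228 sites, Wilson interval 40.0 to 43.5), against 42.2% of all shared sites of chromosomes 1 to 19. The highest 10% by fold in both libraries held 7.17% of them (211 sites, interval 6.30 to 8.16), against 7.57% of all. Each of these differences lay within the counting interval. Over shared sites the median near the start was above that of the rest in replicate 1 and below it in replicate 2, whereas over all peaks of each library, shared or not, it was below in both (ratios 0.964 and 0.958). By chromosome, the median near the start was below that of the rest in both libraries on 7 chromosomes, above it in both on 4, and on opposite sides on 8. Chromosome 3 had the lowest ratios, 0.852 and 0.760, and chromosome 17 the highest, 1.18 and 1.17.

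Tags and local background gave another order. The median summit near the start held 60 tags in replicate 1 and 55 in replicate 2, against 52 and 51 over the rest, and the median background was 4.24 and 4.02 tags against 3.66 and 3.6. Both differed widely between chromosomes: on chromosome 19 the background medians were 7.08 and 7.28 tags against 3.48 and 3.40, and on chromosome 7 they were 7.05 and 7.28 against 4.50 and 4.56. On chromosome 8 the median summit held 88 and 89.5 tags against 55 and 54, and on the gene-dense start of chromosome 14 it held 32 and 34.5 against 49 and 47. Gene-end sites near the start had 106 and 120 tags, with a background of 9.54 and 9.84, and sites elsewhere in the interval had 50 and 42, with 3.15 and 2.80. For gene-end sites of the rest the tags were 83 and 93.

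**Figure D5:**
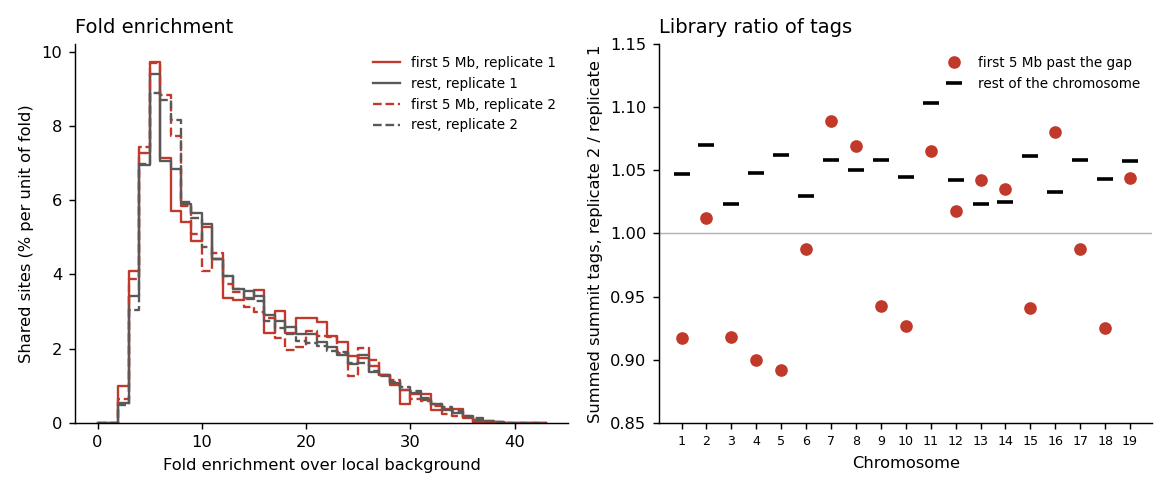
Left, distribution of fold enrichment of shared sites in the first 5 Mb past the gap (red) and over the rest (grey), for replicate 1 (solid) and replicate 2 (dashed). Right, summed summit tags of replicate 2 divided by those of replicate 1 in the first 5 Mb (red points) and over the rest of each chromosome (black bars), from 0.892 on chromosome 5 to 1.09 on chromosome 7 near the start.

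The balance between the libraries also shifted near the start. Over all sites of the interval replicate 2 had 1.01 times as many summit tags as replicate 1, against 1.05 times over the rest, and on 14 of 19 chromosomes the ratio was lower near the start. It was 0.892 on chromosome 5, 0.900 on chromosome 4, 0.917 on chromosome 1 and 0.918 on chromosome 3, whereas over the rest of these chromosomes it was 1.02 to 1.06. On chromosomes 11 and 19 it was 1.07 and 1.04, also below their rest at 1.10 and 1.06, and on chromosome 7 it was 1.09, above its rest at 1.06. The per-site spread was wide (SD 0.609 on the log2 scale) around a median of -0.02, against 0.03 over the rest. With 2 libraries of 1 group this difference cannot be assigned to either.

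Replicate 1 peaks near the start recurred slightly less often. Of 3916 replicate 1 peaks below the limit, 2941 overlapped a replicate 2 peak (75.1%, Wilson interval 73.7 to 76.4), against 78.3% of the rest (78.0 to 78.5) and 78.1% of all on chromosomes 1 to 19. In the other direction, 2934 of 3457 replicate 2 peaks recurred (84.9%, 83.6 to 86.0), against 84.8% of the rest and 84.8% of all. The lower value was thus seen from replicate 1 only. It was lowest on chromosomes 3 (53.7%, 42.9 to 64.0, of 82 peaks), 4 (61.7%), 1 (61.9%) and 9 (62.9%), where the rest of the chromosome gave 76.6% to 79.6%. On chromosome 19 it was 86.3% against 79.6%. Peaks of 1 library near the start were weak, with a median of 18 tags in replicate 1 and 17 in replicate 2, against 60 and 53 for peaks that recurred. The same held over the rest, with 19 and 18 tags against 52 and 50.

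Promoters with a site were richer in CpG than those without, near the start and elsewhere. RefSeq start windows, of 250 bases before to 50 after the start, were at hand for 697 of the 869 genes, 903 windows in all. A shared site covered the start in 482 of them (53.4%, Wilson interval 50.1 to 56.6), against 56.6% over the rest and 56.4% of all windows. Windows with a site held a median of 20 CpG dinucleotides and 61.0% GC, and those without held 4 and 50.0%. Over the rest the medians were 22 and 62.3%, and 3 and 48.7%. The GC box lay in 67.4% of windows with a site and 23.8% without, against 47.0% of all windows. An ETS match (CCGGAAG, both strands) lay in 17.8% and 4.75%, against 11.9% of all. A TATA box (TATAAA, both strands) lay in 6.64% and 15.2%, against 12.7% of all. The CCAAT box, shown above in 4 of the first 5 stretches, lay in 40.5% and 31.8%, against 38.1% of all windows, and over the rest in 38.7% and 37.5%. The NRF1 consensus, searched on both strands, lay in 2 of the 482 windows with a site (0.415%) and in 0.237% without, against 2.25% and 0.276% over the rest and 1.34% of all. A CRE match (TGACGTCA, both strands) lay in 4.36% and 1.19%, against 2.3% of all, and an E-box match (CACGTG, both strands) in 10.6% and 6.89%, against 7.89%. A match is a string of letters and not a measured binding site.

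The limit at 8000000 is a set position, and shared sites lay close to it on both sides. The nearest sites below it were 1271 bp away inside Wdr70 on chromosome 15 (17.7-fold and 18.7-fold), 2234 bp away near Steap4 on chromosome 5 (14.4-fold and 7.36-fold) and 2807 bp away near Dnase1l3 on chromosome 14 (17.3-fold and 18.1-fold). The nearest above it were 2470 bp away at Abhd6 on chromosome 14 (15.3-fold and 14.1-fold), 3218 bp away on chromosome 16 (11.1-fold and 12.9-fold) and 3439 bp away at Yap1 on chromosome 9 (5.83-fold and 5.70-fold). Of the 2941 sites, 2860 kept a −log10 q of at least 5 in both libraries, and in 92.3% the summits lay within 100 bp of each other. With that q limit the density was 30.1 per Mb near the start and 33.3 over the rest, against 31.0 and 34.0 without it. So few sites were lost in either part. The summit share was not counted over the rest. Log2 tags of both libraries correlated with r = 0.90 over the sites, which share their libraries and are not replicates. Over the rest r was 0.89.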

How the data were processed

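ATAC-seq peaks of 2 libraries of 1 group were used, with group and replicate from the titles. Among the tools in the submitters' processing notes are MACS2 2.1.1, a peak caller, and Bowtie2 2.3.4.1, an aligner, and the builds there are GRCm38.p3 and mm10. Settings, any Tn5 shift and the handling of duplicates and multi-mapping reads are not given in the sources used here, and they bear on repeat-rich sequence. The deposited lists, 1 per sample, give each peak's fold, a ratio to local background by the authors' peak caller, a −log10 p-value, a −log10 q-value and a score, which was not used. Folds describe and rank peaks within a list.

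Read depth is unknown. Summit tags and background were solved jointly: fold is (tags + 1) / (background + 1), and the p-value is a Poisson upper tail. For 100% of peaks in both lists exactly 1 whole number met the deposited p-value (tolerance 1e-05 relative, 0.0001 absolute), and the solver was tested on simulated data. Each site pairs a replicate 1 peak and its most overlapping replicate 2 peak. Chromosomes end at their last gene or peak. Genes are 20560 protein-coding models of RefSeq on GRCm38.p6, which shares the coordinates of the peaks; 328 models that end before 3 Mb belong to other scaffolds and were left out. Gene ends ignore strand and include 3′ ends. Python 3.11.15, numpy 2.4.6, pandas 2.3.3, scipy 1.17.1 and statsmodels 0.14.6 were used, with 95% Wilson intervals and no test.

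Named are the strongest site of each chromosome, the 5 strongest at gene ends and elsewhere, the 5 widest, the genes with most other sites within 50 kb, sites at the limit, and listed genes of the interval; of long lists, only examples. Isoc2b, the sequences without a site, the name-stem clusters, the first sites and the high-background sites were chosen otherwise. Members and lists were chosen with earlier results of these data known. An item withheld for evaluation is not reported here.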

Additional observations from a re-analysis of the deposited data

How the results depend on the processing

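Of 47 alternatives, 23 moved a value by less than the SD between the libraries, 15 by more in the same direction and 9 turned its direction. The density ratio of 0.910 became 1.03 with a position limit of 6 Mb, 0.829 without chromosome 19, which had the most sites, and 0.848 per protein-coding gene, and was 0.904 to 0.948 by single library. The share of recurring peaks, lower by 3.16 points (-3.16) near the start, differed by 0.0389 points with positions from replicate 2. The ratio of median folds, 0.997 for the mean of both libraries, was 0.990 below 6 Mb, 1.01 with 50% of each peak overlapping, 1.003 with −log10 q of at least 5 and 0.958 to 0.964 over all peaks of a single library, and the ratio of tags was 1.11. The excess of gene-end sites, 4.34 points, was 6.20 below 6 Mb, 2.06 below 10 Mb, 4.07 with 50% overlap, 3.74 with positions from replicate 2, 1.03 without chromosome 19, 4.0 within 500 bp and 2.48 to 2.85 by single library. The difference in genes with a gene-end site, -0.433 points, was 3.03 below 6 Mb, 1.51 below 10 Mb, 0.125 with 50% overlap, 1.94 without receptors and predicted models, and -4.98 without chromosome 19. By single library it was -0.726 to -0.0104. The causes were not tested. Values by single library use all its peaks. No alternative was tested. No paired analysis was possible because the series holds 1 group. Read depth is unknown, and peaks of 1 library had medians of 18 and 17 tags near the start and 19 and 18 over the rest.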
